A study of Homo sapiens with 21 samples.

Results

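The 51 genes described here encode proteins of the lysosome, factors that regulate such genes and an autophagy receptor, and they were followed in OCI-AML5, a human acute myeloid leukemia cell line, exposed to the small molecule UM171. They were taken by symbol from a fixed list, after the version was removed from each gene identifier, and all 51 matched exactly 1 of the 58174 identifiers in the files. By role they were 11 cathepsins and related proteases, 10 membrane proteins, 20 other hydrolases and their activators or lumenal partners, 6 proton pump subunits, 3 transcription factors and 1 autophagy receptor.

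Poly(A) RNA had been sequenced from 21 libraries in 7 groups of 3. Control cells received the vehicle DMSO (labelled 72 h) or 500 nM UM171 for 6, 24, 48 or 72 h, and sgEPCR cells, carrying a guide against PROCR and labelled both as EPCR null and as an EPCR knockdown, received DMSO or 500 nM UM171 for 24 h. RNA came, by the series description, from sorted subsets whose gate is not given in the sources used here. The labels name no guide in the control cells, whereas the study names sgAAVS1 for its wild-type cells. Which sgEPCR library came from which clone is not given in the sources used here. Only the sgEPCR samples are labelled as clones, so genotype and cloning cannot be told apart in comparisons of the 2 kinds of cell. The DMSO label of 72 h against 24 h in the sgEPCR cells means that genotype and time in culture cannot be told apart in the comparison of the DMSO groups. All groups were kept, by the labels, in DMEM with 10% serum, whereas the methods of the study name another medium with GM-CSF and a lower UM171 dose.

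Lysosomes are the acidic compartment in which cells break down proteins, lipids and sugars. A proton pump of the vacuolar type (V-ATPase) acidifies the lumen, soluble hydrolases such as the cathepsins do the cutting, and membrane proteins carry the products out. The transcription factors TFEB, TFE3 and MITF bind E-box sequences and are known to drive many lysosomal genes. In myeloid cells the same machinery serves antigen processing, the handling of engulfed material and, in osteoclasts, bone resorption.

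The libraries held 24.3 to 51.5 M counts (median 33.9 M). In 2 libraries, sgEPCR DMSO replicate 1 and sgEPCR UM171 replicate 2, mitochondrial transcripts took 35.9% and 32.2% of the counts, against 7.73 to 13.5% in the other 19, so results that rest on them are given with and without them. The line's own markers were present in every group, with CD33 at a mean of 75.1 to 178 TPM (a share of all transcripts that accounts for their length and has the same total in every library). CD34 and MPO were low, with group means of 0.87 to 9.58 TPM and 0.737 to 7.25 TPM. SPI1 had a mean of 417 TPM in DMSO and 216 TPM at 72 h. PROCR, the targeted gene, had a mean of 3.68 ± 0.534 TPM in DMSO and 48.5 ± 0.0115 TPM after 24 h of UM171 in control cells (SD, n = 3 here and below). In sgEPCR cells it had 3.59 ± 1.15 TPM under DMSO and 7.19 ± 2.58 TPM under UM171, and a cut by a guide need not remove the transcript. Nothing in the labels says that the 3 libraries of a group came from separate cultures, so p-values measure the spread between these libraries, which may be technical. In bulk RNA, fewer cells of a type and less RNA per cell cannot be told apart.

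Levels of the 51 genes spanned a wide range in DMSO. CTSZ (379 ± 3.18 TPM) led the proteases, CD63 (377 ± 14.4 TPM) the membrane proteins, MAN2B1 (250 ± 7.23 TPM) the hydrolases and ATP6V1B2 (156 ± 1.12 TPM) the pump subunits. At the other end were 3 genes with almost no reads. ACP5, an acid phosphatase used as an osteoclast marker, had 0 counts in all 21 libraries, which allows up to 3 counts per library. CTSW, a cathepsin known from lymphocytes, had 0 to 3 counts per library, and LGMN, an asparaginyl endopeptidase, had 0 to 5. The filter on low counts left out these 3 and passed 48.

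Expected counts were tested with edgeR, with words used in a fixed sense: a gene "rose" or "fell" at an adjusted p under 0.05, and it "passed the limits" at an adjusted p under 0.0001 with a change over 2-fold, the limits used by the study. After 6 h of UM171, 11 of the 48 tested genes rose and 21 fell, and 0 passed the limits by edgeR or by DESeq2. Among all 16575 genes tested, 31.8% rose, 30.3% fell and 7.03% passed the limits. The split at 6 h turned with the scaling of the libraries: it was 22 higher and 5 lower under total count scaling, where the median log2 change of all genes was 0.20 in place of 0.02, and 13 higher and 12 lower under upper quartile scaling. At 24 h, 17 rose and 22 fell (all genes 34.9% and 34.8%), and 4 passed the limits (all genes 13.7%).

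At 48 h, 23 rose and 14 fell (all genes 37.1% and 35%) and 9 passed the limits (all genes 16.4%). At 72 h, 29 rose and 13 fell (all genes 38.8% and 36.8%), and 11 passed the limits, all of them higher (all genes 20.8%). The share past the limits at 48 and 72 h was thus near that of all genes. The median log2 change of the 48 was -0.09, -0.06, 0.09 and 0.34 at the 4 times in order, beside a median of all genes within 0.02 of 0 at each time. Summed over the 51 genes, the level was 4320 ± 78.0 TPM in DMSO, 4278 ± 128 TPM at 24 h and 5830 ± 183 TPM at 72 h. The 4 time points were compared with the same 3 DMSO libraries, whose label is 72 h, so at 6, 24 and 48 h exposure and time in culture cannot be told apart.

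**Figure D1:**
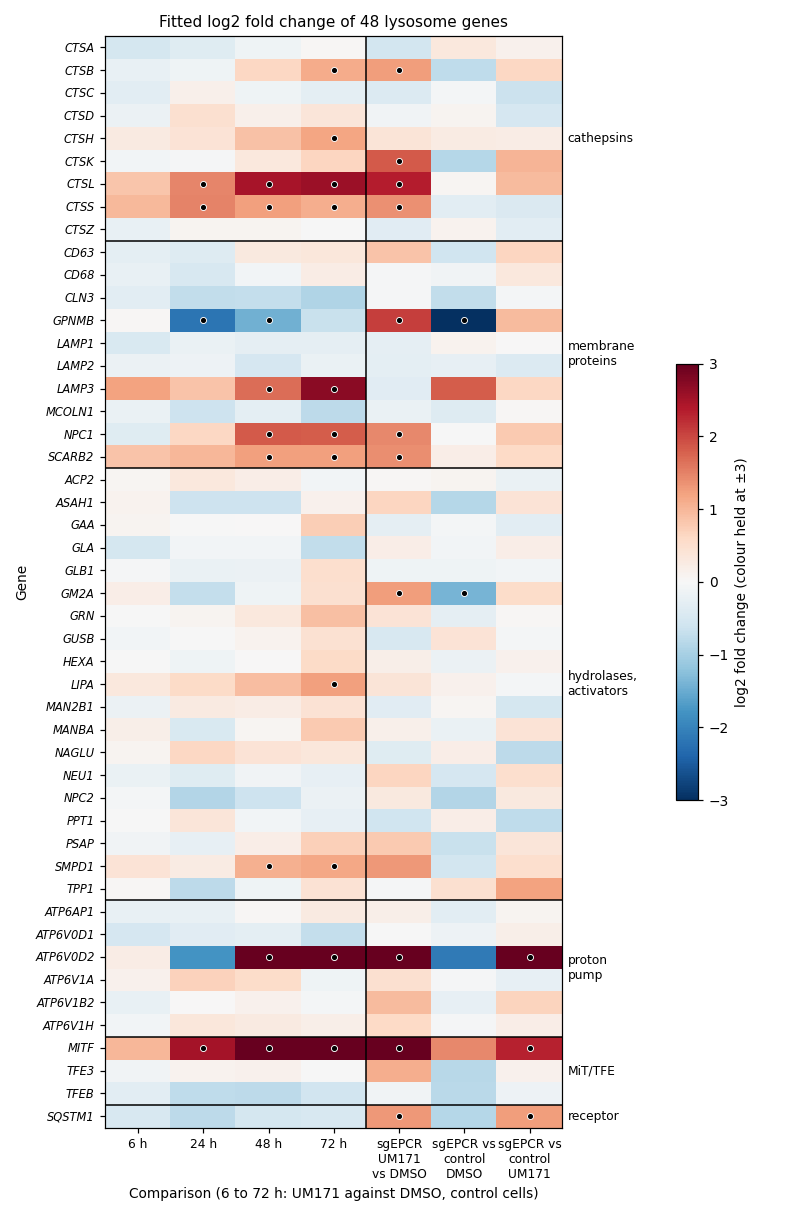
Fitted log2 fold change (colour, held at ±3) of the 48 tested lysosome genes in rows, grouped by role, for UM171 against DMSO at 6, 24, 48 and 72 h in control cells and for 3 comparisons with sgEPCR cells; black dots mark adjusted p under 0.0001 with a change over 2-fold. The 4 time columns hold 0, 4, 9 and 11 dots in order, and CTSL, CTSS and MITF carry them at 24, 48 and 72 h.

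The transcription factors went different ways. MITF, on chromosome 3 of GRCh38 from 69739456 to 69968336, is the family member known for melanocytes, osteoclasts and mast cells. Its level was 2.12, 2.56 and 2.47 TPM in the DMSO libraries, 5.18, 6.09 and 5.24 TPM at 6 h, and 13.55, 10.54 and 19.21 TPM at 24 h. The later libraries had 39.75, 38.71 and 33.59 TPM at 48 h and 28.86, 28.35 and 27.68 TPM at 72 h. Each group lay wholly above the one before it up to 48 h, and the 72 h libraries lay below those of 48 h. The fitted log2 change was 0.98 ± 0.15 (SE) at 6 h (adjusted p = 2.64e-05, edgeR), 2.505 ± 0.14 after 24 h (5.28e-11), 3.97 ± 0.14 after 48 h (8.50e-14) and 3.52 ± 0.14 after 72 h (2.45e-13).

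TFEB, the family member most often named as the master regulator of lysosomal genes, moved down. It stood at 10.62, 12.15 and 11.22 TPM in DMSO, 6.38, 6.90 and 6.64 TPM at 24 h, and 7.15, 7.79 and 7.68 TPM at 72 h, with no overlap between DMSO and either time. Its log2 change was -0.31, -0.75, -0.77 and -0.58 ± 0.06 at the 4 times in order (adjusted p = 2.60e-07, edgeR), and no time passed the limits. TFE3, its close relative, had 19.56, 20.30 and 19.86 TPM in DMSO and 19.22, 22.61 and 21.42 TPM at 72 h, and these overlapped. Its log2 change stayed between -0.10 and 0.12 over the 4 times, and of these the one at 48 h had an adjusted p under 0.05 (0.12 ± 0.05, adjusted p = 0.0364, edgeR).

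**Figure D2:**
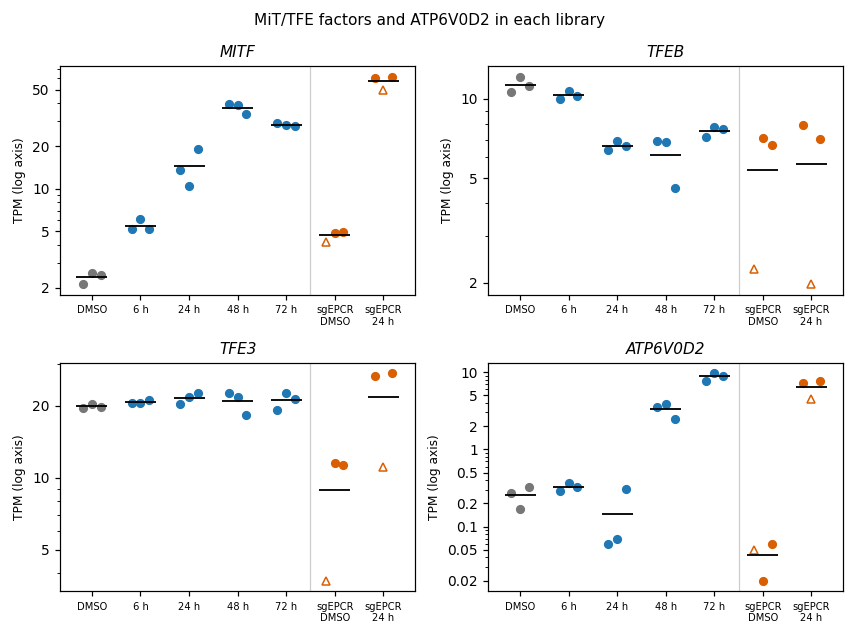
TPM on a log axis of MITF, TFEB, TFE3 and ATP6V0D2 in each of the 21 libraries, by group; grey is DMSO, blue UM171 in control cells, orange sgEPCR cells, the bar is the group mean, and open triangles are the 2 libraries with over 20% mitochondrial counts. MITF climbs from a mean of 2.38 TPM in DMSO to 37.4 TPM at 48 h, TFEB drops from 11.3 to 6.64 TPM at 24 h, and ATP6V0D2 is at most 0.37 TPM in the DMSO, 6 h and 24 h libraries before a mean of 3.30 TPM at 48 h.

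Because these factors read E-boxes, the RefSeq promoter windows (GRCh38.p14, from 250 bases before to 50 after the start) were searched on both strands for CACGTG, for its longer form TCACGTG, which contains it, and for TCATGTG. A window was found for 35 of the 51 genes. CACGTG stood in 10 of the 35 (28.6%), against 8.78% of 27305 genes with such a window. TCACGTG stood in 8 (22.9% against 4.49%) and TCATGTG in 8 (22.9% against 3.59%). The stretches below show the genes with TCACGTG or its reverse complement, since this is the longer form of the site, each 5′ to 3′ on the gene's strand with the motifs in capitals. Stretches were cut short, so further CACGTG matches of LAMP1 (at -28 and -1 from the start) and CLN3 (at -1) are not shown.
LAMP1: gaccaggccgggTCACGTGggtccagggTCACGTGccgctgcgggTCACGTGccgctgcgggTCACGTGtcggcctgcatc
CTSA: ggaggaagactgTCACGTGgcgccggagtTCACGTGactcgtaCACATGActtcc
MCOLN1: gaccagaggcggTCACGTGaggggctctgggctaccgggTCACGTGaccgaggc
GAA: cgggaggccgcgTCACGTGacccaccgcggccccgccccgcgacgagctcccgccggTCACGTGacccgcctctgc
CTSD: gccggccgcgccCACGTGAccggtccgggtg
CLN3: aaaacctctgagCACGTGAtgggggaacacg
ATP6V0D1: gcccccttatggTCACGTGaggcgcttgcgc
NEU1: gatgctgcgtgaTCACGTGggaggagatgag

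The LAMP1 stretch is chr13:113297034-113297114 on the plus strand, from 205 to 125 bases before the start. Those of CTSA (chr20:45891280-45891334), MCOLN1 (chr19:7522570-7522623) and GAA (chr17:80101492-80101567) are also on the plus strand. Those of CTSD (chr11:1763956-1763986), CLN3 (chr16:28492086-28492116), ATP6V0D1 (chr16:67481199-67481229) and NEU1 (chr6:31862930-31862960) are on the minus strand. All of them lie within the 250 bases before the start.

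None of these 8 genes passed the limits in any of the 8 comparisons made here. At 72 h, 2 of the 8 rose (CTSD and GAA, which encode the aspartic protease cathepsin D and acid alpha-glucosidase) and 5 fell, among them CLN3 (log2 change -0.91 ± 0.05), MCOLN1 (-0.79 ± 0.09), ATP6V0D1 (-0.71 ± 0.04), LAMP1 and NEU1. The median log2 change of the 8 was -0.26 at 72 h, beside 0.39 over the other 26 tested genes that had a window. Of the 18 genes past the limits in any comparison, 12 had a window and 1, CD63, held CACGTG, together with TCATGTG. Of the 12 genes past the limits in the time course, 8 had a window and 0 of these held CACGTG. GPNMB and SCARB2, 2 of them, held the TCATGTG form. The stretches of these 2 genes are shown because they are the matches among the genes past the limits in the time course.
SCARB2: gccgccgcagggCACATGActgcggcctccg
GPNMB: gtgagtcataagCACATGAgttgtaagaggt

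The SCARB2 stretch is chr4:76213919-76213949 on the minus strand and that of GPNMB chr7:23246640-23246670 on the plus strand. GPNMB has a further TCATGTG match at -62 from the start, outside the stretch shown. A match is a run of letters and not a measured binding site, and MITF, NPC1, CTSL and the other genes without a match have none in this window alone.

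Among the cathepsins, 6 of 9 tested genes rose at 72 h, 1 fell and 2 did not pass the test (all genes 38.8% higher and 36.8% lower, to which the counts by role at 72 h compare), with a median log2 change of 0.64. CTSL, the endoprotease cathepsin L on chromosome 9 from 87724051 to 87731469, moved most. It had 4.87, 5.54 and 5.50 TPM in DMSO, 10.56, 11.77 and 10.93 TPM at 6 h and 16.32, 15.53 and 14.43 TPM at 24 h. At 48 h it had 29.54, 31.89 and 26.96 TPM and at 72 h 32.51, 32.14 and 36.36 TPM, so that no group overlapped the one before, although the last step did not pass the test (adjusted p = 0.0726, edgeR). Its log2 change was 0.84, 1.46, 2.47 and 2.58 ± 0.06 at the 4 times in order (adjusted p = 4.13e-16, edgeR).

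CTSS, a cathepsin known for cutting the invariant chain in antigen presenting cells, was highest at 24 h. It had 46.51, 51.82 and 54.31 TPM in DMSO, 89.79, 108.44 and 106.61 TPM at 6 h, 144.69, 146.35 and 144.29 TPM at 24 h, 122.67, 131.82 and 80.52 TPM at 48 h, and 100.06, 113.82 and 126.05 TPM at 72 h. All UM171 libraries exceeded all DMSO libraries. Its log2 change was 0.97, 1.48, 1.24 and 1.09 ± 0.06 at the 4 times in order (adjusted p = 4.73e-11, edgeR).

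CTSB and CTSH, which were already abundant, rose later. CTSB, the cysteine protease cathepsin B, had 253.91, 283.82 and 283.46 TPM in DMSO, 244.46, 251.33 and 273.03 TPM at 24 h and 585.46, 652.64 and 632.19 TPM at 72 h. Its 24 h libraries overlapped those of DMSO (log2 change -0.12 ± 0.07, adjusted p = 0.122, edgeR), while the log2 change was 0.63 ± 0.07 at 48 h and 1.12 ± 0.07 at 72 h (adjusted p = 9.55e-11). CTSH, an aminopeptidase, had 139.98, 128.02 and 128.68 TPM in DMSO and 325.41, 333.20 and 323.65 TPM at 72 h, with a log2 change that grew from 0.27 ± 0.04 at 6 h to 1.19 ± 0.04 at 72 h (adjusted p = 9.61e-14).

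The remaining cathepsins changed less in control cells. CTSZ, the most abundant, had 375.93, 379.84 and 382.23 TPM in DMSO and 393.16, 408.98 and 385.85 TPM at 72 h, with an adjusted p of 0.949 (edgeR). CTSC, known for activating granule proteases, fell at 72 h (-0.30) and CTSD rose (0.36). CTSK, the collagen-cutting protease of osteoclasts, was low, with 1.45, 1.58 and 1.43 TPM in DMSO and 2.80, 2.96 and 2.72 TPM at 72 h (log2 change 0.64 ± 0.15, adjusted p = 9.64e-04).

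**Figure D3:**
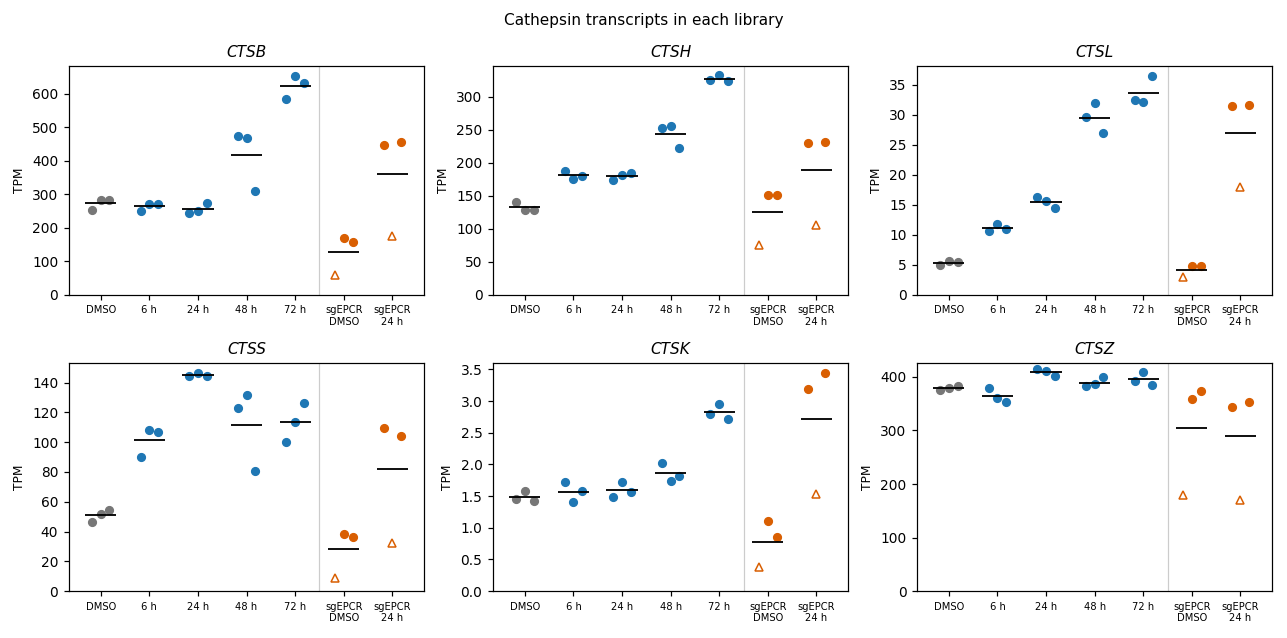
TPM of 6 cathepsin genes in each of the 21 libraries, by group; grey is DMSO, blue UM171 in control cells, orange sgEPCR cells, bars are group means, and open triangles are the 2 libraries with over 20% mitochondrial counts. CTSS is highest at 24 h (mean 145 TPM), whereas CTSB, CTSH and CTSL are highest at 72 h (623, 327 and 33.7 TPM) and CTSZ is level in the control cells.

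The membrane proteins divided evenly at 72 h, when 5 of 10 rose and 5 fell (all genes 38.8% and 36.8%), with a median log2 change of 0.01. NPC1, the cholesterol exporter that is mutated in Niemann-Pick disease type C, is on chromosome 18 from 23506184 to 23586506. It had 61.92, 64.85 and 66.54 TPM in DMSO, 53.91, 57.55 and 59.51 TPM at 6 h, 82.09, 84.17 and 110.64 TPM at 24 h, 214.18, 226.74 and 170.31 TPM at 48 h, and 205.04, 216.27 and 216.89 TPM at 72 h. The 6 h libraries all lay below those of DMSO and the later ones all above. Its log2 change was -0.35 ± 0.08 at 6 h (adjusted p = 6.58e-04, edgeR) and 0.62, 1.83 and 1.81 ± 0.08 at the later times (7.80e-13 for the last).

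SCARB2, the receptor that carries glucocerebrosidase to lysosomes, had 12.29, 12.33 and 14.04 TPM in DMSO and was already at 23.15, 25.89 and 25.16 TPM at 6 h. It had 28.01, 29.76 and 32.34 TPM at 72 h, and its log2 change went from 0.85 ± 0.05 at 6 h to 1.24 ± 0.05 at 72 h (adjusted p = 1.63e-13, edgeR). LAMP3, known from mature dendritic cells, was near the floor, with 9 to 14 counts per library in DMSO and 78 to 86 at 72 h. In TPM these were 0.13, 0.19 and 0.17 against 1.68, 1.08 and 1.24 (log2 change 2.70 ± 0.21, adjusted p = 2.75e-09), and neither LAMP3 nor SMPD1 passed the limits when all 21 libraries shared a fit.

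GPNMB, a glycoprotein of macrophages and melanosomes and a known MITF target, fell in control cells from 24 h on, when MITF was higher. It had 8.58, 9.42 and 9.34 TPM in DMSO, 10.42, 10.59 and 11.26 TPM at 6 h, and 3.09, 3.05 and 3.21 TPM at 24 h. It then had 4.73, 4.06 and 3.22 TPM at 48 h and 5.90, 7.01 and 6.80 TPM at 72 h, and every one of these was below every DMSO library. The log2 change was -2.20 ± 0.07 at 24 h (adjusted p = 6.50e-14, edgeR), -1.44 ± 0.07 at 48 h (4.77e-12) and -0.67 ± 0.06 at 72 h (3.32e-08).

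Of the classical markers of the lysosomal membrane, LAMP1 and LAMP2 fell at 72 h by 0.27 and 0.20 on the log2 scale. CD63, a tetraspanin of late endosomes, had 362.22, 378.30 and 390.94 TPM in DMSO, 288.98, 291.78 and 303.54 TPM at 24 h and 468.86, 559.39 and 521.58 TPM at 72 h. It therefore fell at 24 h (log2 change -0.39 ± 0.05) and rose at 72 h (0.34 ± 0.05, adjusted p = 6.32e-06, edgeR). CLN3 and MCOLN1, a membrane protein lost in Batten disease and a calcium channel of the lysosome, fell.

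Among the other hydrolases, activators and lumenal partners, 14 of 19 rose at 72 h and 4 fell (all genes 38.8% and 36.8%), and 6 rose and 9 fell at 24 h (all genes 34.9% and 34.8%). LIPA, the acid lipase that frees cholesterol from its esters, had 48.82, 46.81 and 50.58 TPM in DMSO and 119.44, 117.52 and 125.70 TPM at 72 h. Its log2 change grew from 0.32 ± 0.04 at 6 h to 0.57, 0.92 and 1.22 ± 0.04 at 24, 48 and 72 h (adjusted p = 1.19e-13 at 72 h, edgeR). SMPD1, acid sphingomyelinase, had 7.12, 7.07 and 7.11 TPM in DMSO and 14.46, 15.20 and 13.57 TPM at 72 h (log2 change 1.16 ± 0.08, adjusted p = 7.95e-10).

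Several abundant genes of this role were lower at 24 h than in DMSO or at 72 h. ASAH1, acid ceramidase, had 130.67, 134.15 and 143.24 TPM in DMSO, 96.94, 96.28 and 87.78 TPM at 24 h and 154.69, 165.89 and 155.12 TPM at 72 h. NPC2, the lumenal partner of NPC1 in cholesterol export, had 145.84, 168.41 and 168.02 TPM in DMSO, 87.82, 85.27 and 96.83 TPM at 24 h and 161.70, 173.04 and 160.50 TPM at 72 h. GM2A, the activator protein for ganglioside breakdown, had 21.07, 21.28 and 21.22 TPM in DMSO, 12.41, 13.90 and 14.70 TPM at 24 h and 30.26, 30.68 and 32.34 TPM at 72 h. At 24 h the log2 changes of the 3 genes were -0.63 ± 0.04, -0.88 ± 0.04 and -0.70 ± 0.05, and at 72 h they were 0.12 ± 0.04, -0.18 ± 0.04 and 0.48 ± 0.04. NPC1 and NPC2, which act in the same export route, moved in opposite directions at 24 h. At 72 h the sign for NPC2 turned with the scale, its mean TPM being 1.03 times that in DMSO.

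MAN2B1, an alpha-mannosidase, had 250.65, 257.30 and 242.86 TPM in DMSO and 345.30, 334.26 and 342.02 TPM at 72 h (log2 change 0.44 ± 0.04). GRN, PSAP and MANBA, which encode progranulin, the saposin precursor and a beta-mannosidase, rose by 0.91, 0.70 and 0.79 at 72 h without passing the limits. The falls of this role at 72 h were GLA (-0.75), PPT1, NEU1 and, on the scale of the fit alone, NPC2, and ACP2 did not pass the test.

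**Figure D4:**
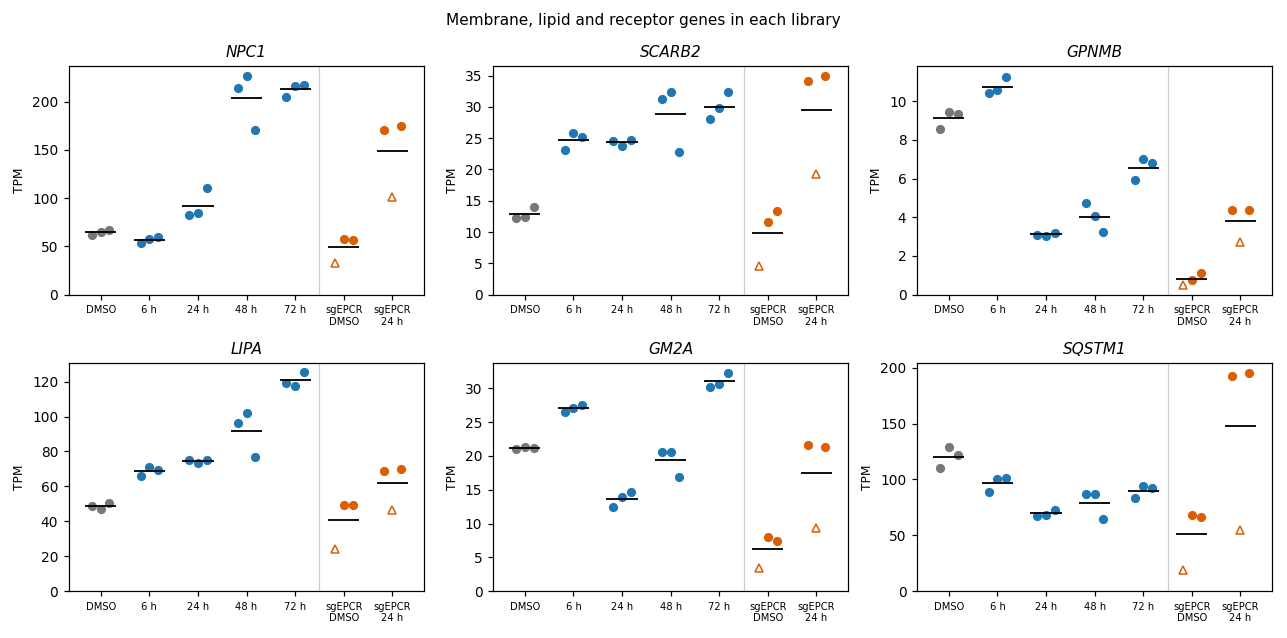
TPM of NPC1, SCARB2, GPNMB, LIPA, GM2A and SQSTM1 in each of the 21 libraries, by group; grey is DMSO, blue UM171 in control cells, orange sgEPCR cells, bars are group means, and open triangles are the 2 libraries with over 20% mitochondrial counts. GPNMB and GM2A are lowest at 24 h among the control groups, while in sgEPCR cells both start lower (0.80 and 6.25 TPM) and are higher with UM171 (3.83 and 17.4 TPM).

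Of the 6 pump subunits, 1 passed the limits in the time course. ATP6V0D2, the d2 subunit of the pump's membrane sector known from osteoclasts and macrophages, had 15, 9 and 19 counts in the DMSO libraries, 18, 18 and 14 at 6 h, and 4, 3 and 7 at 24 h. It had 261, 194 and 119 counts at 48 h and 415, 525 and 547 at 72 h, which in TPM is a mean of 0.26 ± 0.081 in DMSO, 3.30 ± 0.731 at 48 h and 8.76 ± 0.955 at 72 h. Summed over libraries, its count rate at 72 h (counts over library total) was 34.9 times that in DMSO (95% interval 25.8 to 48.5, counting error alone), and at 24 h 0.288 times (0.145 to 0.536). The fitted log2 change was -1.78 ± 0.42 at 24 h (adjusted p = 0.00113, edgeR), 3.72 ± 0.22 at 48 h (7.72e-11) and 5.04 ± 0.20 at 72 h (4.29e-13).

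The d1 subunit that most tissues use, ATP6V0D1, fell at 6, 24, 48 and 72 h, to -0.71 ± 0.04 at the last, and stayed far more abundant than ATP6V0D2 (59.5 against 8.76 TPM at 72 h). ATP6V1B2 had 155.22, 155.91 and 157.42 TPM in DMSO and 135.88, 155.64 and 159.10 TPM at 72 h, which overlapped (log2 change -0.06 ± 0.05, adjusted p = 0.293, edgeR). ATP6V1A, the catalytic subunit, rose at 24 h (0.68) and at 48 h (0.54) and not at 72 h (-0.13), and ATP6AP1 and ATP6V1H rose at 72 h by 0.28 and 0.18.

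SQSTM1 (p62), the receptor that delivers ubiquitin-tagged cargo to autophagosomes, fell in control cells. It had 109.82, 128.99 and 121.57 TPM in DMSO, 67.21, 68.50 and 72.99 TPM at 24 h and 83.08, 94.34 and 92.66 TPM at 72 h. Its log2 change was -0.47 ± 0.05 at 6 h, -0.79 ± 0.05 at 24 h and -0.49 ± 0.05 at 72 h (adjusted p = 9.09e-08, edgeR).

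Changes between neighbouring times were tested too. From 6 to 24 h, 2 of the 48 genes passed the limits (all genes 1664 of 16575), MITF upward (log2 change 1.52) and GPNMB downward (-2.23). From 24 to 48 h, 4 passed (all genes 472 of 16575), all upward: CTSL (1.01), NPC1 (1.21), ATP6V0D2 (5.50) and MITF (1.46). From 48 to 72 h ATP6V0D2 passed (1.32), the single one (all genes 556 of 16575), while MITF fell by 0.44. In the same step 13 of 19 hydrolases and activators rose and 4 fell, beside 4648 and 4845 of all 16575 genes.

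Macrophage and osteoclast markers were read beside these genes, because CTSK, ACP5, ATP6V0D2, GPNMB and CTSS are known from those cells. The summed level of 8 monocyte and macrophage markers was 45.9 to 48.7 TPM in DMSO and 153 to 160 TPM at 72 h. Most of it came from ITGAM (13.2 to 98.3 TPM, means) and CSF1R (24.2 to 52.8 TPM). MARCO went the other way, from 9.20 TPM in DMSO to 1.75 TPM at 24 h and 4.01 TPM at 72 h. MSR1 had 0.537 TPM in DMSO and 0.523 TPM at 72 h. MRC1 was under 0.1 TPM in every group on average, and CD14, FCGR3A and CD163 were under it in DMSO. The 6 osteoclast markers summed to 12.7 to 13.7 TPM in DMSO and 19.2 to 20.5 TPM at 72 h, most of it NFATC1 (means of 12.8 and 15.5 TPM). DCSTAMP went from 0.12 to 2.46 TPM, OCSTAMP from 0.0067 to 0.917 TPM and TNFRSF11A from 0.143 to 0.847 TPM. CALCR and MMP9 were under 0.1 TPM in every group. In sgEPCR cells the macrophage list summed to 14.5 to 35.0 TPM in DMSO and 36.5 to 85.4 TPM in UM171, and the osteoclast list to 9.55 to 25.1 and 10.3 to 30.4 TPM. The part of these markers in the lysosomal changes was not tested.

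Markers of other cells were near 0 for T cells (CD3E and CD3G), B cells (MS4A1) and epithelium (CDH1), with exceptions that moved with UM171. The 4 T cell markers summed to 0.36 to 1.31 TPM in DMSO and 15.5 to 19.1 TPM at 72 h, nearly all CD3D (0.447 and 16.1 TPM). CD79A went from 9.67 to 38.5 TPM at 48 h, and PECAM1 from 43.7 to 13.3 TPM at 24 h. Their part in the results was not tested.

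The comparison with sgEPCR cells set their response to 24 h of UM171 beside that of control cells. EPCR is the protein C receptor encoded by PROCR. Control DMSO is labelled 72 h and sgEPCR DMSO 24 h, and the sgEPCR cells alone are labelled as clones. Genotype, time in culture and cloning therefore cannot be told apart in the differences between responses. In the fit of the 12 libraries concerned, the spread was wider (common biological coefficient of variation 0.19, against 0.056 in the time course), and 15901 genes were tested, again including 48 of the 51. In sgEPCR cells UM171 raised 23 of the 48 and lowered 7 (all genes 27% and 25.1%), and 11 passed the limits, all higher (all genes 10.3%). The median log2 change was 0.25, beside -0.06 for the same 48 in control cells at 24 h in the same fit. Under total count scaling, where the median of all genes was 0.16 in place of -0.01, 19 rose and 0 fell, and 5 passed the limits (all genes 1124 of 15901). Without the 2 libraries with a high mitochondrial share, 29 rose and 12 fell, and 13 passed the limits, SMPD1 and TFE3 being added (all genes 15.7%). Among all genes 11611 of 16360 then had an adjusted p under 0.05, beside 8282 of 15901 with all libraries.

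Taken as the difference between the responses, 17 of the 48 were higher and 4 lower in sgEPCR cells (all genes 21.9% and 23.1%), and 8 passed the limits, all of them higher (all genes 7.77%). The median difference was 0.40 on the log2 scale, beside -0.02 for all genes. Total count scaling gave 14 higher and 0 lower, of which 2 passed the limits, and limma on log2(TPM + 1) left 1 past them. Of all 15901 genes, 424 and 29 passed the limits under these settings. Leaving out the same 2 libraries, 30 were higher and 13 lower, and 13 passed the limits (all genes 19.1%): the same 8 together with CTSB, CTSL, NEU1, PSAP and SMPD1. The d2 pump subunit, GPNMB, SQSTM1, GM2A, CTSK, ASAH1, CD63 and NPC2 were the 8. Among all genes 11328 of 16360 had an adjusted p under 0.05 without the 2 libraries, beside 7158 of 15901 with them.

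For these genes the values below are CPM (counts relative to the library total, scaled by TMM), the scale of the fit, which unlike TPM corrects for the share that mitochondrial transcripts take. ATP6V0D2 had 0.42, 0.25 and 0.46 in control DMSO, 0.08, 0.05 and 0.27 in control UM171, 0.16, 0.03 and 0.09 in sgEPCR DMSO and 10.2, 12.04 and 10.8 in sgEPCR UM171. It was thus near the floor in 9 of the 12 libraries, and in sgEPCR UM171 it had 289 to 496 counts per library. Summed over libraries, sgEPCR UM171 had 144 times the count rate of sgEPCR DMSO (95% interval 72.7 to 334, counting error alone, from 1177 against 8 counts). The fitted log2 change in sgEPCR cells was 6.96 ± 0.46 (adjusted p = 5.66e-07, edgeR). The responses differed by 8.68 ± 0.68 (adjusted p = 4.18e-06, edgeR), sizes that depend on how such low counts are shrunk.

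GPNMB had 15.3, 15.7 and 15.4 CPM in control DMSO and 3.37, 3.15 and 3.75 in control UM171, but 1.75, 1.39 and 1.58 in sgEPCR DMSO and 5.86, 8.12 and 5.84 in sgEPCR UM171. Under UM171 it was therefore lower than under DMSO in control cells and higher in sgEPCR cells, with no overlap in either. The log2 change was -2.18 in control cells and 2.07 ± 0.16 in sgEPCR cells, a difference of 4.25 ± 0.22 (adjusted p = 3.09e-07, edgeR). In DMSO it was lower in sgEPCR than in control cells (log2 -3.31 ± 0.16, adjusted p = 3.92e-07).

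SQSTM1 and GM2A also fell with UM171 in control cells and rose in sgEPCR cells. SQSTM1 had 145, 158 and 151 CPM in control DMSO, 85.8, 87.8 and 90.0 in control UM171, 68.1, 92.1 and 92.3 in sgEPCR DMSO and 234, 160 and 234 in sgEPCR UM171. The difference between its responses was 2.10 ± 0.22 (adjusted p = 2.77e-05, edgeR). GM2A had 52.7, 50.7 and 49.4 in control DMSO, 29.3, 32.1 and 33.0 in control UM171, 18.8, 20.2 and 19.3 in sgEPCR DMSO and 49.0, 41.0 and 48.3 in sgEPCR UM171, a difference of 1.94 ± 0.12 (1.01e-06). Both were lower in sgEPCR than in control cells in DMSO, SQSTM1 by 0.85 ± 0.15 and GM2A by 1.39 ± 0.09 on the log2 scale.

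CTSK had 1.54, 1.61 and 1.44 CPM in control DMSO, 1.51, 1.66 and 1.25 in control UM171, 0.82, 0.74 and 0.96 in sgEPCR DMSO and 3.07, 2.75 and 3.18 in sgEPCR UM171. It changed in sgEPCR cells (log2 1.83 ± 0.16, adjusted p = 5.22e-06, edgeR), and the difference of 1.88 ± 0.23 (7.29e-05) was close to the limit and lost it on leaving out any of 11 of the 12 libraries. ASAH1 (difference 1.27 ± 0.13), CD63 (1.23 ± 0.11) and NPC2 (1.17 ± 0.09) fell in control cells and rose in sgEPCR cells at 24 h.

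**Figure D5:**
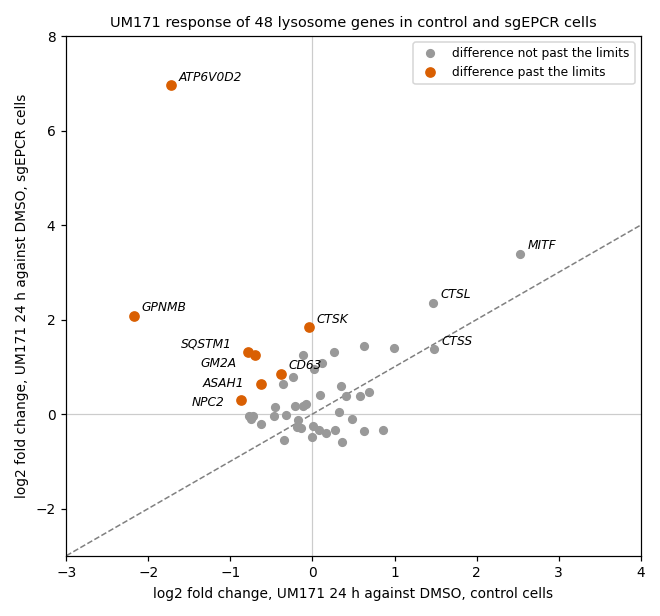
Fitted log2 fold change after 24 h of UM171 in sgEPCR cells (vertical axis) against control cells (horizontal axis) for the 48 tested genes, both from the 12-library fit; orange points are the 8 genes whose difference passed the limits, and the dashed line marks equal responses. The 8 lie above the line, led by ATP6V0D2 (6.96 against -1.72) and GPNMB (2.07 against -2.18), while CTSS (1.37 against 1.48) lies near it.

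Other genes answered UM171 in both kinds of cell. CTSS changed by 1.48 in control and 1.37 ± 0.07 in sgEPCR cells, and the difference of -0.12 ± 0.10 did not pass the test (adjusted p = 0.369, edgeR). Without the 2 libraries with a high mitochondrial share this difference was -0.16 ± 0.06 and passed it (adjusted p = 0.024). MITF had 5.28, 5.55 and 5.66 CPM in control DMSO, 29.99, 24.99 and 40.5 in control UM171, 17.7, 13.6 and 13.7 in sgEPCR DMSO and 137, 201 and 133 in sgEPCR UM171. It rose in sgEPCR cells by 3.39 ± 0.22 (adjusted p = 4.93e-07) and was higher than in control cells under DMSO (1.44 ± 0.21) and under UM171 (2.30 ± 0.21, 1.17e-05). The difference between its responses was 0.86 ± 0.29 (adjusted p = 0.0320).

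CTSL rose by 2.36 ± 0.14 in sgEPCR cells against 1.46 in control cells, a difference of 0.89 ± 0.19 (adjusted p = 0.00265, edgeR). NPC1 (1.44 ± 0.10), SCARB2 (1.40 ± 0.09) and CTSB (1.25 ± 0.15) also passed the limits in sgEPCR cells, and CTSB, which in control cells rose at 48 h and not at 24 h, differed between the responses by 1.37 ± 0.21 (3.43e-04). CTSH and LIPA each rose by 0.38 in sgEPCR cells, and their differences from the control response of -0.03 ± 0.11 and -0.20 ± 0.12 did not pass the test. Without the 2 libraries the LIPA difference was -0.27 ± 0.05 and passed it (adjusted p = 3.61e-04, edgeR). That of CTSH was then 0.03 ± 0.07 and did not (0.726). TFE3, level in control cells, had 16.9, 24.5 and 25.04 CPM in sgEPCR DMSO and 49.8, 40.1 and 51.4 in sgEPCR UM171 (1.09 ± 0.14, adjusted p = 1.01e-04), which misses the limit narrowly and passes it without the 2 libraries.

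With both kinds of cell in DMSO, 4 of the 48 genes were higher and 14 lower in sgEPCR cells (all genes 17.4% and 16.3%), and GPNMB and GM2A passed the limits (all genes 2.84%). Upper quartile scaling made this 2 and 17, and without the 2 libraries it was 13 and 26, with MITF added, higher (all genes past the limits 6.5%). Among all genes 9868 of 16360 then had an adjusted p under 0.05, beside 5358 of 15901 with all libraries. With both in UM171 for 24 h, 17 were higher and 6 lower (all genes 20.8% and 22.2%), and ATP6V0D2, MITF and SQSTM1 passed, all higher (all genes 4.46%). Without the 2 libraries 31 were higher and 10 lower, and CTSK was added (all genes past the limits 9.87%). The table as a whole moved too, from 6844 of 15901 genes at an adjusted p under 0.05 to 11169 of 16360. These comparisons share their groups with the differences between responses above.

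The 2 libraries rich in mitochondrial transcripts also stood apart in the lysosomal genes. Set against the other 2 libraries of their own group on the TMM scale, 32 of the 48 genes were lower in both and 9 higher in both. TFEB (0.4196 and 0.396 times the others), NAGLU, GAA, SMPD1 and PSAP were among the lowest. LAMP3 (4.08 and 3.13 times), TPP1 (3.56 and 2.78 times) and CD68 (2.28 and 1.98 times) were over 1.5 times the others in both, and these genes are named here after their values were seen. TPP1, a peptidase of the lysosome, had 711, 200 and 200 CPM in sgEPCR DMSO and 226, 626 and 225 in sgEPCR UM171. Its UM171 response in sgEPCR cells was -0.05 ± 0.50 with all libraries and 0.17 ± 0.04 without the 2 (adjusted p = 0.0014, edgeR). Without them the difference between its responses was 0.96 ± 0.05 (7.32e-10). In DMSO TPP1 was then lower in sgEPCR than in control cells (-0.42 ± 0.04, 1.93e-07). What sets the 2 libraries apart was not tested. All 24 gene changes that passed the limits in the sgEPCR comparisons also passed without them.

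Other lysosomal genes, on lists drawn up around these 51, were counted at 72 h, when 38.8% of all genes rose, 36.8% fell and 20.8% passed the limits. For pump subunits and membrane proteins the share that rose was near that of all genes. Of 17 further hydrolases 11 rose and 4 fell, with FUCA1 and SGSH the largest changes past the limits (log2 1.802 and 5.02, the latter from 0.063 to 0.743 TPM). Of 14 further pump subunits tested 6 rose and 7 fell, and only 1 passed the limits, ATP6V0A2, which fell (-1.003). Of 11 further membrane proteins 5 rose and 4 fell, with TMEM192 (-1.08) and SLC17A5, the sialic acid exporter (1.02), past the limits. IGF2R, a receptor that sorts enzymes tagged with mannose 6-phosphate, rose by 2.07 ± 0.04, while the 6 genes of its list divided into 3 and 3.

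Of 21 autophagy genes 12 rose and 5 fell at 72 h (all genes 38.8% and 36.8%, as for the next lists), with MAP1LC3A (3.98, from 0.11 to 1.797 TPM) and CALCOCO2 (3.11, from 3.06 to 25.7 TPM), another cargo receptor, the largest. Of 18 genes of mTORC1 and its control of TFEB 6 rose and 10 fell, and 0 passed the limits. Of 4 cystatins, which inhibit cathepsins, 3 rose and 1 fell, with CST7 (2.83) and CSTA (1.68) past the limits. In the difference between the sgEPCR and control responses, the largest of these lists were the cargo receptor OPTN (6.30 ± 0.24, from 0.197 TPM in sgEPCR DMSO to 9.18 TPM in sgEPCR UM171), the hydrolase IDS (2.29), LAPTM4B (-1.85), SLC17A5 (1.04), MAP1LC3B (1.75), and RRAGB and RRAGC (1.57 and 1.55), which anchor mTORC1 at the lysosome.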

How the data were processed

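RNA sequencing of 21 OCI-AML5 libraries was analysed from gene tables made by the authors with RSEM. Per the submitters' processing notes, reads passed through CASAVA 1.8.2, Trimmomatic 0.35, STAR 2.5.1b and RSEM 1.2.28 on GRCh38. The annotation release and strand setting given to RSEM are not given in the sources used here, and the methods of the study name kallisto and sleuth for its own statistics. The authors deposited expected counts, in which RSEM divides reads shared between similar genes, so values of genes with near-identical copies are less certain. The authors also deposited TPM, which is scaled to the same total in every library.

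The 45 Y pseudoautosomal entries were summed with their X counterparts. Expected counts were rounded and fitted with edgeR 4.0.16 (R 4.3.3) after filterByExpr and TMM scaling, with the quasi-likelihood test, and p-values were adjusted by Benjamini-Hochberg across the whole table. Comparisons within the time course came from 15 libraries (16575 genes) and sgEPCR comparisons from 12 (15901 genes), with 1 mean per group and no block. Standard errors were taken as |log2 change| over the root of the F statistic. Gene positions are from GENCODE v44 and promoter windows from RefSeq.

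On simulated data, all 200 changed genes were recovered in the time course design and 131 of 200 in the difference between responses (92 of 100 at a log2 change of 2, 39 of 100 at 1.5), with 0 false calls in each. The simulated libraries were independent, had the same spread for all genes, and held changes only in genes averaging over 100 counts. None was deviant or correlated with another, so the recovery does not cover such sgEPCR libraries or genes with low counts. The genes, lists and comparisons were chosen with earlier results of these data known. Named with values were the genes past the limits in any of 8 comparisons (18 genes), the most abundant of each role, TFEB, TFE3 and MITF, those that failed the filter, and on the other lists the 2 largest changes past the limits. Members named beyond this rule were chosen after their values were seen. Tried as alternatives: DESeq2 (1.42.0), limma (3.58.1) with log2(TPM + 1), other scalings, filters, fits, limits and blocks, and leaving out libraries. Intervals and floors cover counting error only.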

Additional observations from a re-analysis of the deposited data

Results flagged for a closer look

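For 8 genes the response to 24 h of UM171 differed between sgEPCR and control cells by edgeR's test of that difference, at an adjusted p under 0.0001 and over 2-fold. On the log2 scale the differences were 8.68 for ATP6V0D2, 4.25 for GPNMB, 2.10 for SQSTM1, 1.94 for GM2A, 1.88 for CTSK, 1.27 for ASAH1, 1.23 for CD63 and 1.17 for NPC2, all higher in sgEPCR cells. Without the 2 libraries with a high mitochondrial share they were 9.05, 4.17, 2.14, 2.01, 1.91, 1.202, 1.26 and 1.22. Of the 8, 2 passed the limits under total count scaling, 1 under limma on log2(TPM + 1) and 0 with the replicate block. Of all 15901 genes tested, 424, 29 and 0 passed under the same settings, so the block left no gene of any kind past the limits. On leaving out single libraries 5 to 9 genes passed. Over 21 alternatives CTSK was lost in 15, SQSTM1 in 13 and ASAH1 in 11. ATP6V0D2, GPNMB, SQSTM1, GM2A, ASAH1, CD63 and NPC2 moved in opposite directions in the fitted means of the 2 kinds of cell, and CTSK was level in control cells (-0.04). The DMSO groups carry different times in their labels (72 h and 24 h), and the sgEPCR cells alone are labelled as clones. Genotype, time in culture and cloning thus cannot be told apart in these differences.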

How the results depend on the processing

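The 48 single gene changes past the limits were recomputed 1049 times over the alternatives: 922 stayed past the limits, 127 did not, and 0 changed direction. DESeq2 and upper quartile scaling lost 0 of 48, the fit of all 21 libraries 4 (SMPD1 and LAMP3 at 48 and 72 h), total count scaling 14, limma on log2(TPM + 1) 22, and no filter 1.

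Numbers that moved are given in the order 6, 24, 48 and 72 h, sgEPCR response, difference between responses, sgEPCR against control in DMSO and in UM171, then the steps 6 to 24, 24 to 48 and 48 to 72 h, beside 0, 4, 9, 11, 11, 8, 2, 3, 2, 4 and 1. An adjusted p under 0.05 alone gave 32, 39, 37, 42, 30, 21, 18, 23, 37, 32 and 37, and with over 1.5-fold 5, 18, 16, 21, 20, 17, 12, 13, 11, 10 and 11. At 6 h total count scaling gave 5, and upper quartile scaling and a minimum of 10 counts 2 each. The sgEPCR response, difference and DMSO comparison gave 5, 2 and 1 under total count scaling and 3, 1 and 1 under limma, and limma gave 1 in UM171. Of all genes, 1124, 424 and 207 passed there under total count scaling and 270, 29 and 12 under limma, beside 1642, 1236 and 452. No filter gave 4 for the step from 6 to 24 h. The step from 48 to 72 h gave 2 under total count and upper quartile scaling and no filter, and 0 with 10 counts. The difference gave 13 without both libraries with a high mitochondrial share. The cause of these moves was not tested.

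With the replicate block, each of the 4 sgEPCR numbers became 0 and the time course numbers did not move. Of all 15901 genes, 114 passed in the sgEPCR response with the block and 0 in each of the other sgEPCR comparisons. Same-numbered libraries correlated between -0.0827 and 0.0778 in the time course (30 pairs), where the numbers thus gave no sign of pairing. In sgEPCR cells they correlated between -0.61 and 0.45 (3 pairs). With so few pairs, and a library with a high mitochondrial share in each group, this cannot show whether the numbers pair them. Libraries with different numbers did correlate in sgEPCR cells: DMSO replicate 1 with UM171 replicate 2 (0.69), the 2 with a high mitochondrial share, and DMSO replicates 2 and 3 with UM171 replicates 1 and 3 (0.45 to 0.53, the lowest being the same-numbered pair). Whether they share a clone was not tested.

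Leaving out libraries singly left 5 to 9 in the difference between responses and 1 to 3 with both in UM171. CTSK (difference), SQSTM1 (sgEPCR response, difference and UM171), CTSB (sgEPCR response) and ASAH1 (difference) were the calls most often lost, on leaving out control or sgEPCR libraries, and MITF in UM171 was lost without UM171 24 h replicate 1 or 2. Leaving out a 6, 48 or 72 h library lost 0 of 24. The share of promoters with CACGTG was 28.6% also in the 250 bases before the start. Low counts limit ATP6V0D2, LAMP3 and CTSK, and genes under 3 counts were not detectable at this depth.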
